A study of Mus musculus with 6 samples.

Results

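Disease-associated microglia genes are switched on by microglia, the resident macrophages of the brain, in neurodegeneration. A set of 10 of them, known to rise in microglia lacking progranulin, was followed here in macrophages of a different origin, taken from the peritoneal cavity of the mouse. Members were chosen by gene symbol: Apoe, Trem2, Lpl, Cst7, Itgax, Spp1, Cd9, Cst3, Cstb and Igf1. All 10 were found among the 54532 genes of the table, and all 10 were among the 8882 genes with a mean of at least 1 FPKM over the libraries, which were tested. FPKM relate the fragments of a gene to its length and to the size of the library, so that levels can be compared between genes.

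As described by the labels, every library came from C57BL/6J macrophages plated at 2000000 cells per well, left overnight and then exposed for 6 hours to Candida albicans, with 1 fungal cell added for each macrophage. The 3 wild type (WT) libraries carry replicate numbers 1, 2 and 3, and the 3 libraries of mice lacking progranulin (PGRN KO) carry replicate numbers 4, 5 and 6. The titles of the WT libraries hold the word control, although their treatment label names the fungus, and no unchallenged library was analysed here. Bone marrow-derived macrophages are named instead in the text of the study, with another ratio of fungus to cells, so the labels were followed. It also names different suppliers for PGRN KO and WT mice, and supplier and genotype cannot be told apart. Nothing read here tells how many mice gave the cells of a library or whether mice were pooled, so that p-values measure only the spread between these samples, which may be technical.

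Progranulin is a secreted glycoprotein that is also delivered to lysosomes, where it is cut into granulins. In the brain, the disease-associated state of microglia is entered around amyloid plaques and dying cells. Homeostatic genes such as P2ry12 and Tmem119 then fall, and genes of lipid uptake, lysosomal proteolysis and adhesion rise, the later part of the change requiring the lipid receptor Trem2. Among the members, Trem2 is the receptor, Apoe and Lpl handle lipoprotein lipids, Cst7, Cst3 and Cstb are inhibitors of cysteine proteases, Itgax, Spp1 and Cd9 act in adhesion, and Igf1 is a growth factor.

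The libraries held 15996786 to 17551619 counted fragments. Grn, the gene for progranulin, was at 324, 337 and 325 FPKM in WT replicates 1 to 3 and at 0.0166, 0 and 0.0167 FPKM in PGRN KO replicates 4 to 6, which matched the labels, and no member lies on chromosome 11, where Grn lies. PGRN KO replicate 6 stood apart. Its deviation from the mean of all libraries correlated with gene length across the 8882 genes with a Spearman coefficient of -0.47, whereas the coefficient was 0.15 to 0.24 in the other libraries (a description over genes, which are not replicates). In that library the median deviation was 0.29 on the log2 scale for the fifth of genes with the shortest models, up to 1776 bases, and -0.29 for the fifth with the longest, from 6950 bases. Each member is therefore given with and without that library and after a correction of every library for gene length.

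The 10 genes did not move in 1 direction. By limma on log2(FPKM + 1), with p-values adjusted over all 8882 genes, 3 members were significantly higher in PGRN KO (Cst7, Apoe and Trem2), 3 were significantly lower (Lpl, Igf1 and Itgax) and 4 did not pass the threshold of 0.05 (Cst3, Spp1, Cstb and Cd9). Cst7 was 4.18-fold, Apoe 3.12-fold and Trem2 1.81-fold higher by the ratio of mean FPKM, while Lpl was 2.34-fold, Igf1 1.43-fold and Itgax 1.33-fold lower. The 6 of 10 members called stood beside 24.2% of all tested genes, the 3 higher ones beside 10.4% and the 3 lower ones beside 13.8%. Values in parentheses after a pair of mean levels are log2 fold changes ± SE, and levels are means ± SD (n = 3 each). The median log2 fold change of the members was -0.14, and that of all tested genes was -0.03. The FPKM of the 3 WT and the 3 PGRN KO libraries did not overlap for 8 of 10 members, beside 48.8% of all tested genes. An exact two-sided permutation test of a single gene gave p = 0.1 for those 8 members, the smallest that 3 against 3 libraries allow, and p = 0.4 for Spp1 and Cstb. These are bulk libraries, in which fewer cells of a type and less RNA per cell cannot be told apart.

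Without PGRN KO replicate 6, 9 members were called, beside 41.3% of all tested genes. The same 3 were higher, beside 16.2%, and 6 were lower, beside 25.1%, since Cd9, Cstb and Spp1 joined Lpl, Igf1 and Itgax. Cst3 was the member left uncalled. Without WT replicate 1, 2 or 3, the called members were Apoe, Cst7 and Lpl in each case, beside 8.03%, 9.63% and 9.94% of all tested genes. Every member kept the direction of its difference in all 18 alternative analyses.

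**Figure D1:**
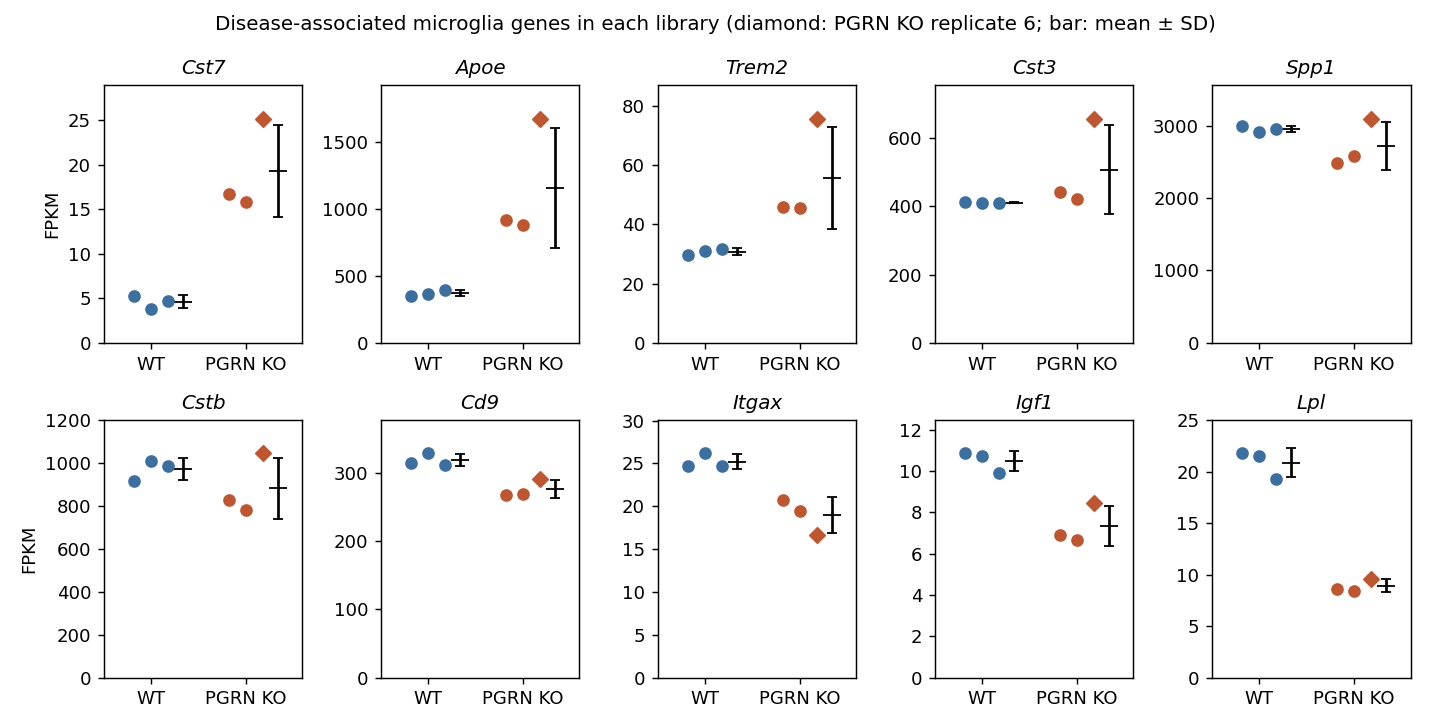
FPKM of the 10 genes in each library, with 1 panel per gene and a linear axis from 0. Points are libraries, the diamond is PGRN KO replicate 6, and the bar gives the mean ± SD of 3 libraries. Cst7, Apoe and Trem2 sat higher in every PGRN KO library, Lpl, Igf1 and Itgax sat lower, and Spp1 and Cstb overlapped.

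Promoters are shown for the 3 members that rose and for Itgax, which fell, so that the sequences just upstream of genes that moved in opposite directions can be compared. RefSeq start sites (GRCm38.p6) were matched for 8 of the 10 members, and not for Lpl and Cstb. Each line gives the 160 bases that end 1 base before the start of the transcript, 5′ to 3′ on the strand of the gene. Capitals mark matches to the motifs searched on both strands, which were the core bound by ETS factors such as PU.1, the AP-1 motif, the E-box, the core of the interferon-stimulated response element (ISRE) and the TATA box, spelled out after the sequences.
Cst7, chr2:150570255-150570414, + strand: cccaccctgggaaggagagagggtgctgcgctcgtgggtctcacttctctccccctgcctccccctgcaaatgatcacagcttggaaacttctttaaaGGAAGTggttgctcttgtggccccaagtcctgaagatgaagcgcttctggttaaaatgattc
Apoe, chr7:19699189-19699348, - strand: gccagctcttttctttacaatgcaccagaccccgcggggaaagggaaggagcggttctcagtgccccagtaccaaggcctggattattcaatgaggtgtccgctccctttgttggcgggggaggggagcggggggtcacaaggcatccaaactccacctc
Trem2, chr17:48346241-48346400, + strand: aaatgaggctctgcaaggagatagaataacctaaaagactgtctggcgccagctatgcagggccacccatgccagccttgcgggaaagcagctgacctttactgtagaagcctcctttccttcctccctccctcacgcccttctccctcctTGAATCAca
Itgax, chr7:128129390-128129549, + strand: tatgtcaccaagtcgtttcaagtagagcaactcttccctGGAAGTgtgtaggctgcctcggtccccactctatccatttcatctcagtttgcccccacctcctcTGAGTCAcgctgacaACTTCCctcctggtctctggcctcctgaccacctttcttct

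The ETS core, GGAAGT, was found 62 bases upstream of the start in Cst7 and 121 and 41 bases upstream in Itgax, the latter on the opposite strand. Over 32851 promoter windows of the same length, 14.1% held it. The AP-1 motif, TGANTCA, was found 9 bases upstream in Trem2 and 56 bases upstream in Itgax, and 4.53% of windows held it. Igf1, which also fell and is not shown, held the AP-1 motif 37 bases upstream of its matched start. The Apoe window shown held none of the motifs. Apoe has other matched start sites, and the window of that at 19698621, not shown, held the TATA box on both strands. Neither the E-box (CACGTG, in 4.5% of all windows) nor the ISRE core (GAAANNGAAA, 1.72%) was found in the sequences shown. The TATA box (TATAAA, 8.01%) was not found in them either. No matches overlapped in the windows shown, and a match describes the sequence and does not show that a factor was bound.

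Trem2 (ENSMUSG00000023992, chromosome 17, 48346401 to 48354147, GRCm38) encodes a surface receptor for lipids, lipoproteins and cell debris that signals through the adaptor Tyrobp. It was at 29.6, 31.1 and 31.9 FPKM in WT and at 45.8, 45.7 and 75.8 FPKM in PGRN KO. Every PGRN KO library was above every WT library, and PGRN KO replicate 6 was 1.66-fold above the mean of the other PGRN KO libraries. The mean rose from 30.9 ± 1.14 to 55.7 ± 17.4 FPKM (0.79 ± 0.20 on the log2 scale, 95% interval 0.33 to 1.26, limma adjusted p 0.0292). Without PGRN KO replicate 6 the log2 difference was 0.55 (adjusted p 0.00109), and after the correction for gene length it was 0.85 (0.0178). The call was lost without WT replicate 1, 2 or 3 (adjusted p 0.106, 0.0956 and 0.0833) and with no filter on low values (0.0843).

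Tyrobp, the adaptor of Trem2, was at 403, 412 and 427 FPKM in WT and at 412, 409 and 644 FPKM in PGRN KO. The groups overlapped, and the log2 difference was 0.20 ± 0.19 (limma adjusted p 0.45), or -0.01 without PGRN KO replicate 6. Of the 13 genes listed as partners of Trem2 signalling, all tested, 1 was higher and 5 were lower in PGRN KO, with a median log2 fold change of -0.30. Those counts, like those of every list below, stand beside 10.4% of all tested genes called higher and 13.8% called lower. Without PGRN KO replicate 6, 2 of the 13 were higher and 7 lower, beside 16.2% and 25.1% of all tested genes. On the TPM scale, where each library has the same sum, 3 genes of the list were called, and 3 when any 1 WT library was left out. Vav1, a signalling protein of blood cells, showed the largest decrease, from 55.7 ± 2.1 to 25.9 ± 1.80 FPKM (-1.08 ± 0.09). Plcg2, the phospholipase that acts downstream of Syk, fell from 18.8 ± 0.559 to 11 ± 0.755 FPKM (-0.72 ± 0.09). Syk, the tyrosine kinase recruited by Tyrobp, fell from 88.4 ± 0.804 to 63.4 ± 8.11 FPKM (-0.48 ± 0.11, limma adjusted p 0.0239). The Syk call was lost on the TPM scale (adjusted p 0.121), with quantile normalization (0.0652) and with library size taken as the sum of fragments (0.0776). Pik3cd, a catalytic subunit of phosphoinositide 3-kinase, rose from 4.50 ± 0.104 to 7.77 ± 0.759 FPKM (0.67 ± 0.10). Vav3 and Adam17, the protease that can shed Trem2 from the surface, were the other genes that fell. Their calls were lost on the TPM scale (limma adjusted p 0.12 and 0.134) and with the sum of fragments as library size (0.0821 and 0.0851).

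Trem1, an activating receptor of the same family whose gene lies near Trem2 on chromosome 17, moved the opposite way. It fell from 46.7 ± 1.65 to 20.2 ± 0.927 FPKM (-1.17 ± 0.08, limma adjusted p 0.00119). Of the 5 other Trem family genes listed, 3 were tested. Trem3 was at 2.23 to 4.74 FPKM in WT libraries and 1.34 to 2.45 FPKM in PGRN KO, and its difference of -0.60 did not pass (adjusted p 0.113). Trem3 passed without PGRN KO replicate 6 (-0.77, adjusted p 0.0432) and after the correction for gene length (-0.69, 0.0378), when 2 and 3 genes of the list were called. Treml2, the third gene tested, went the way of Trem2, from a mean of 0.785 to 1.28 FPKM without overlap. Its difference of 0.35 did not pass (limma adjusted p 0.0569), and it reached the level for testing only through PGRN KO. Treml2 passed after the correction for gene length (0.41, adjusted p 0.0312) but not without PGRN KO replicate 6 (0.32, 0.0711).

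Apoe (ENSMUSG00000002985, chromosome 7, 19696109 to 19699188) encodes apolipoprotein E, a carrier of cholesterol that macrophages secrete and a ligand of Trem2. The levels were 351, 366 and 396 FPKM in WT libraries and 919, 882 and 1676 FPKM in PGRN KO, from 11583 to 61942 fragments per library. All PGRN KO libraries lay far above WT, and replicate 6 was 1.86-fold above the mean of replicates 4 and 5, the widest such gap among the members. The mean rose from 371 ± 23.1 to 1159 ± 448 FPKM, and in order of level among the 8882 genes Apoe moved from position 136 in WT to 41 in PGRN KO. On the log2 scale the difference was 1.58 ± 0.25 (95% interval 1.00 to 2.16, limma adjusted p 0.00661), at position 30 from the highest of all tested genes. PGRN KO replicates 4 and 5 alone were 2.43-fold above WT (log2 fold change 1.28, adjusted p 0.000354), and the difference passed the threshold in 18 of 18 alternatives (adjusted p 5.46e-05 to 0.0379), being 1.51 after the correction for gene length.

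Lpl (ENSMUSG00000015568, chromosome 8, 68880491 to 68907448) encodes lipoprotein lipase, which releases fatty acids from triglyceride-rich lipoproteins. It was at 21.8, 21.5 and 19.3 FPKM in WT and at 8.63, 8.46 and 9.63 FPKM in PGRN KO. Every PGRN KO library, replicate 6 included, was below 10 FPKM and every WT library above 19 FPKM. The mean fell from 20.9 ± 1.40 to 8.91 ± 0.632 FPKM (-1.14 ± 0.09 on the log2 scale, 95% interval -1.36 to -0.92, limma adjusted p 0.00119), at position 59 from the lowest of all tested genes. The decrease passed in 18 of 18 alternatives (adjusted p 2.24e-05 to 0.0147), and it was -1.19 without PGRN KO replicate 6 and -0.97 after the correction for gene length. Lpl has the longest model among the members, 10478 bases, and 3.97% of the 31-base words of its transcripts also occur in transcripts of other genes.

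Apoe and Lpl, which both act on lipoproteins, differed in opposite directions. Of 20 other listed genes of lipoprotein and lipid handling, 12 were tested, of which 1 was higher and 2 were lower (median log2 fold change -0.21). Over all tested genes, 10.4% were called higher and 13.8% lower. Abcg1, which exports cholesterol to lipoprotein particles, rose from 1.13 ± 0.181 to 2.94 ± 0.293 FPKM (0.89 ± 0.11, limma adjusted p 0.00322). Fabp4, a cytosolic fatty acid carrier, fell from 17.4 ± 1.40 to 10.7 ± 2.35 FPKM (-0.67 ± 0.15), and Mylip, the ligase that targets lipoprotein receptors for degradation, fell from 1.66 ± 0.135 to 0.939 ± 0.122 FPKM (-0.46 ± 0.10). Plin2, the coat protein of lipid droplets, differed by -0.29 (limma adjusted p 0.166), and Cd36, a scavenger receptor for oxidised lipoproteins, by -0.33 (0.0553), and neither passed. Without PGRN KO replicate 6 the list held 1 gene that was higher and 6 that were lower, Plin2 and Cd36 included. Over all tested genes, 16.2% were then higher and 25.1% lower. The list held 1 called gene when any 1 WT library was left out and 1 with no filter, and Mylip lost its call on the TPM scale (adjusted p 0.0788) and with library size taken as the sum of fragments (0.0509).

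Cst7 (ENSMUSG00000068129, chromosome 2, 150570415 to 150578944) encodes cystatin F, an inhibitor of cysteine cathepsins that is sorted to lysosomes. It was at 5.27, 3.84 and 4.72 FPKM in WT and at 16.7, 15.9 and 25.2 FPKM in PGRN KO. The groups were far apart, and replicate 6 was again the highest library. With 56 to 429 fragments per library, Cst7 was the member measured on the fewest fragments. The mean rose from 4.61 ± 0.723 to 19.3 ± 5.14 FPKM (1.83 ± 0.19 on the log2 scale, 95% interval 1.39 to 2.28, limma adjusted p 0.00185), at position 4 from the highest of all tested genes. Without PGRN KO replicate 6 the log2 fold change was 1.63 (adjusted p 0.000524), after the correction for gene length it was 1.74 (0.00037), and Cst7 passed in 18 of 18 alternatives (adjusted p 6.26e-05 to 0.0147). Cytotoxic lymphocytes and mast cells also express Cst7, and the levels of their markers are given with the markers.

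Neither of the other cysteine protease inhibitors among the members passed the threshold. Cst3 (ENSMUSG00000027447, chromosome 2, 148871722 to 148875692) encodes cystatin C, the main secreted cystatin. It was at 412, 410 and 409 FPKM in WT and at 440, 422 and 656 FPKM in PGRN KO. The groups did not overlap, but replicate 6 alone was far from WT, and the log2 difference of 0.27 ± 0.18 (95% interval -0.14 to 0.69) had an adjusted p of 0.290 by limma. It was 0.07 (adjusted p 0.286) without that library and 0.18 (0.152) after the correction for gene length, and it passed in 1 of 18 alternatives, quantile normalization (0.38, adjusted p 0.0330). Cstb (ENSMUSG00000005054, chromosome 10, 78425669 to 78427622) encodes stefin B, an inhibitor in the cytosol. It was at 915, 1012 and 989 FPKM in WT and at 826, 780 and 1046 FPKM in PGRN KO, so that replicate 6 lay above WT while replicates 4 and 5 lay below. The log2 fold change was -0.15 ± 0.14 (95% interval -0.47 to 0.18, limma adjusted p 0.465), and it was -0.27 (adjusted p 0.0205) without replicate 6 and -0.22 (0.0456) after the correction for gene length. At 603 bases the Cstb model is the shortest of the members.

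Of the 10 other cystatins and stefins listed, 8 were in the table and 1 was tested. Stfa3, a stefin of myeloid cells, was at 39.6 to 42.1 FPKM in WT libraries and 26.5 to 38.1 FPKM in PGRN KO, and its difference of -0.38 did not pass (limma adjusted p 0.0833). Stfa3 passed without PGRN KO replicate 6 (-0.52, adjusted p 0.00334) and after the correction for gene length (-0.44, 0.0112). The proteases that cystatins inhibit were examined next. Of 11 listed cysteine cathepsins and legumain, 10 were tested, 3 were higher and 1 was lower, with a median log2 fold change of 0.22. Among all tested genes, 10.4% were higher and 13.8% lower. Without WT replicate 1, 2 or 3, 1, 1 and 3 genes of the list were called. Ctsk, a collagenolytic cathepsin, rose from 110 ± 4.95 to 181 ± 30.8 FPKM (0.71 ± 0.13, limma adjusted p 0.0117). Ctsb rose from 1217 ± 13.3 to 1747 ± 252 FPKM (0.51 ± 0.13), and Ctsw, known from cytotoxic lymphocytes, rose from 0.716 ± 0.0820 to 1.48 ± 0.223 FPKM (0.53 ± 0.11). Ctsw lies near the lowest level tested, and it reached that level only through PGRN KO. Ctsc, which activates serine proteases of granules and is a known target of cystatin F, fell from 69.8 ± 3.47 to 46.4 ± 2.01 FPKM (-0.58 ± 0.09, adjusted p 0.00571). Ctss, the cathepsin that trims the invariant chain, had the highest level of the list, 2810 ± 90.1 FPKM in WT libraries and 2902 ± 469 FPKM in PGRN KO, with a log2 fold change of 0.04.

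**Figure D2:**
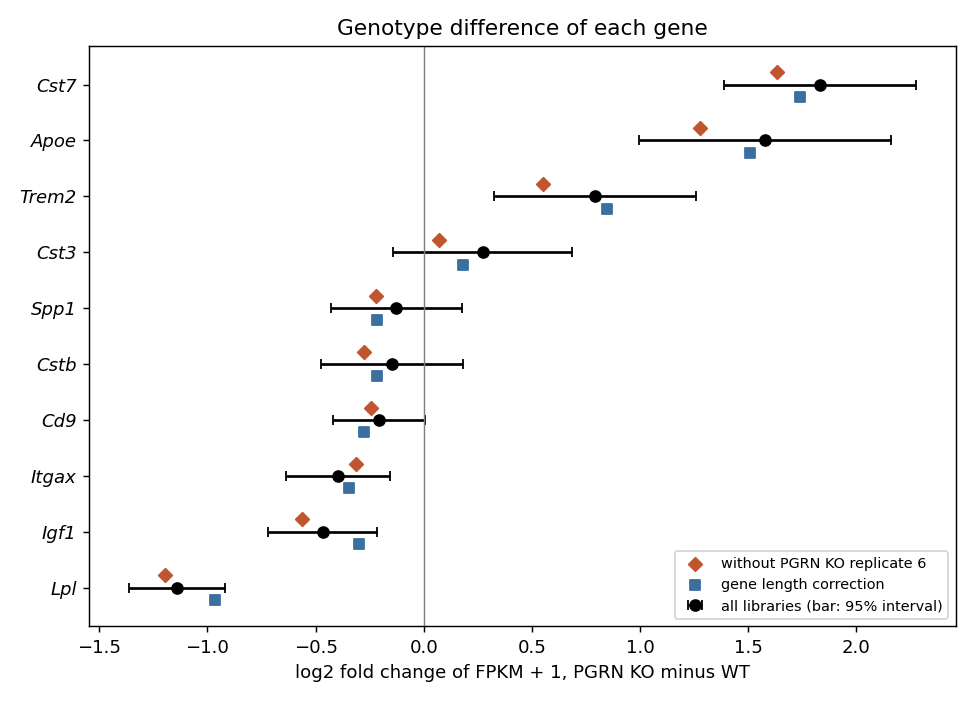
Log2 fold change of FPKM + 1 (PGRN KO minus WT, horizontal axis) for the 10 genes. Circles with bars are the estimates from all libraries with 95% intervals, diamonds leave out PGRN KO replicate 6, and squares follow the correction for gene length. Intervals of Cst7, Apoe and Trem2 lie above 0, those of Lpl, Igf1 and Itgax lie below 0, and all markers of a gene lie on the same side of 0.

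Itgax (ENSMUSG00000030789, chromosome 7, 128129547 to 128150657) encodes integrin alpha X (CD11c), an adhesion and complement receptor chain best known from dendritic cells. It was at 24.7, 26.2 and 24.7 FPKM in WT and at 20.7, 19.5 and 16.7 FPKM in PGRN KO. The groups did not overlap, and Itgax was the member for which replicate 6 lay below the mean of replicates 4 and 5 (0.830-fold). The mean fell from 25.2 ± 0.836 to 19.0 ± 2.07 FPKM (-0.40 ± 0.10 on the log2 scale, 95% interval -0.64 to -0.16, limma adjusted p 0.0326). It was -0.31 (adjusted p 0.00769) without replicate 6 and -0.35 (0.026) after the correction for gene length. The call held in 10 of 18 alternatives and was lost on the TPM scale (0.165), with library size taken as the sum of fragments (0.107) and when any 1 WT library was left out (0.0967 to 0.125), among others. Of the 31-base words of Itgax, 10.7% also occur in transcripts of other genes, most of all the integrin gene Itgad, which was at most 0.0492 FPKM.

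Spp1 (ENSMUSG00000029304, chromosome 5, 104435118 to 104441050) encodes osteopontin, a secreted ligand of integrins and of Cd44. It was the most abundant member, at position 15 of the 8882 genes in WT, with 2989, 2915 and 2955 FPKM in WT libraries and 2479, 2581 and 3096 FPKM in PGRN KO. Replicates 4 and 5 lay below every WT library and replicate 6 above, so the groups overlapped. The log2 fold change was -0.13 ± 0.13 (95% interval -0.43 to 0.18, limma adjusted p 0.5), and it was -0.22 without replicate 6 (adjusted p 0.0253) and after the correction for gene length (0.0504). The predicted transcript Gm42793 lies within Spp1 on the same strand, and 14.3% of the words of Spp1 occur in other genes, Gm42793 most of all. Cd9 (ENSMUSG00000030342, chromosome 6, 125460266 to 125494791) encodes a tetraspanin that organises integrins in the membrane. It was at 315, 329 and 312 FPKM in WT and at 269, 269 and 292 FPKM in PGRN KO, without overlap. The log2 fold change of -0.21 ± 0.09 (95% interval -0.42 to 0.01) did not pass (limma adjusted p 0.138), whereas it was -0.24 with an adjusted p of 0.0109 without replicate 6 and -0.28 with 0.0326 after the correction for gene length. Cd9 overlaps Gm28809, at up to 4.33 FPKM, and Gm26728 on the opposite strand, and 20.1% of its words are shared, so that its level is uncertain unless counting used strand.

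Of 12 listed integrin partners and osteopontin receptors, 11 were tested, 1 was higher and 2 were lower, and without PGRN KO replicate 6, 2 were higher and 3 lower. These counts stand beside 10.4% and 13.8% of all tested genes, and beside 16.2% and 25.1% without that library. Cd44, a receptor for hyaluronan and osteopontin, fell from 103 ± 5.84 to 56.0 ± 6.31 FPKM (-0.87 ± 0.11, limma adjusted p 0.00356), and Itgal, the alpha chain of LFA-1, fell from 6.78 ± 0.136 to 4.48 ± 0.434 FPKM (-0.51 ± 0.09), a call lost on the TPM scale (adjusted p 0.0658). Itgb3, a beta chain of the vitronectin and osteopontin receptor, rose from 2.26 ± 0.153 to 4.52 ± 0.763 FPKM (0.75 ± 0.12, adjusted p 0.00800). Itgb2, the beta chain that pairs with Itgax, was at 667 ± 13.4 and 651 ± 21.9 FPKM with a log2 fold change of -0.03, and Itgb1 had one of -0.07. Among 10 tested tetraspanins of 12 listed besides Cd9, 0 passed by limma on the deposited values, and 0 by voom (the limma fit for fragment counts). At an unadjusted p under 0.05, 1 was higher and 1 lower. The list held 1 called gene on the TPM scale, 1 with quantile normalization and 1 with the sum of fragments as library size. It held 2 after the correction for gene length and 3 with sample quality weights. Without replicate 6, 1 tetraspanin was higher and 2 were lower. Cd53, the most abundant, had a log2 fold change of -0.03, and Cd63 had one of 0.47 (limma adjusted p 0.0858). Cd63 passed after the correction for gene length (0.48, adjusted p 0.0381) and without replicate 6 (0.28, 0.00676). Cd82 passed in the other direction in both settings (-0.26, adjusted p 0.0446, and -0.35, 0.00325).

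Igf1 (ENSMUSG00000020053, chromosome 10, 87858265 to 87937042) encodes insulin-like growth factor 1. It was at 10.9, 10.7 and 9.93 FPKM in WT and at 6.91, 6.67 and 8.45 FPKM in PGRN KO. The groups did not overlap, and replicate 6 was the PGRN KO library nearest to WT. The mean fell from 10.5 ± 0.497 to 7.34 ± 0.968 FPKM (-0.47 ± 0.11 on the log2 scale, 95% interval -0.72 to -0.21, limma adjusted p 0.0222), and without replicate 6 it was -0.56 (adjusted p 0.00166). After the correction for gene length it was -0.30 with an adjusted p of 0.201, and the call was also lost when any 1 WT library was left out (0.0646 to 0.102), without PGRN KO replicate 4 (0.0655) or 5 (0.0622) and with no filter (0.0534). The Igf1 model is 9904 bases long. Of 12 genes listed for the receptor, its substrates and binding proteins, 6 were tested and 1 was lower, beside 13.8% of all tested genes. Irs2, an adaptor of the insulin and IGF1 receptors, fell from 48.9 ± 2.43 to 20.4 ± 6.57 FPKM (-1.27 ± 0.23, limma adjusted p 0.0106). Igf2r, the receptor that sorts lysosomal enzymes, had a log2 fold change of -0.23 (adjusted p 0.438).

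**Figure D3:**
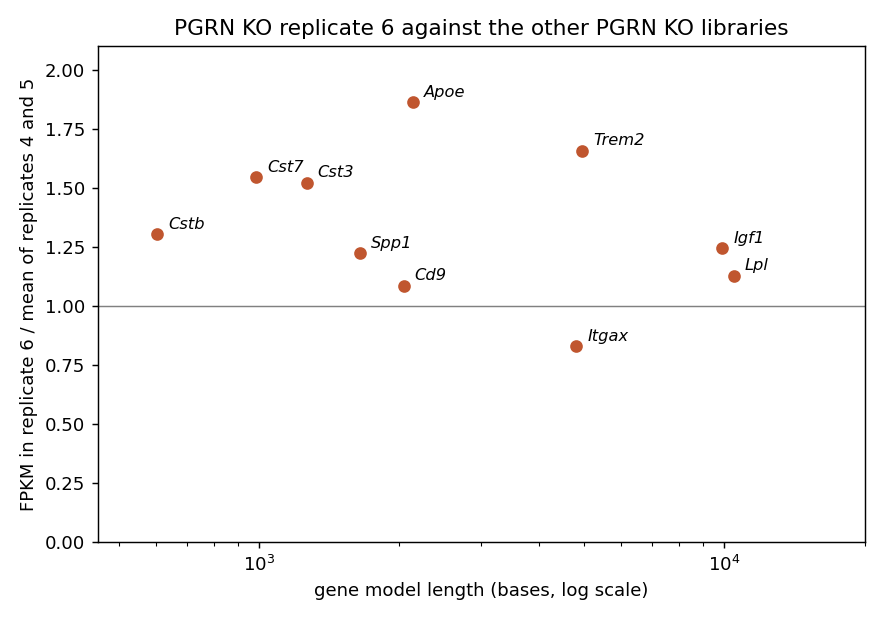
FPKM in PGRN KO replicate 6 divided by the mean FPKM of PGRN KO replicates 4 and 5 (vertical axis, linear) against the length of the gene model in bases (horizontal axis, log scale) for the 10 genes. The line marks equal levels. Of the 10 points, 9 lie above the line, from 1.08 for Cd9 to 1.86 for Apoe, and Itgax lies below it at 0.830.

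The order of the members by level changed between the groups. In WT it was Spp1, Cstb, Cst3, Apoe, Cd9, Trem2, Itgax, Lpl, Igf1 and Cst7, and no neighbours in that order overlapped over the 3 libraries. The PGRN KO order was Spp1, Apoe, Cstb, Cst3, Cd9, Trem2, Cst7, Itgax, Lpl and Igf1. There Apoe and Cstb overlapped, as did Cst7 and Itgax, while Lpl and Igf1 were separated only by 8.459 against 8.454 FPKM. By the means of all 3 libraries, Apoe thus moved up 2 places and Cst7 3 places. In PGRN KO replicates 4 and 5, Itgax was above Cst7, with means of 20.1 and 16.3 FPKM. The place of Cst7 above Itgax therefore rested on replicate 6.

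A wider list of 28 disease-associated microglia genes besides the members was set beside them. Of 26 tested, 10 were higher in PGRN KO, 0 were lower (0 also at an unadjusted p under 0.05 and by voom) and 16 did not pass, with a median log2 fold change of 0.30. Among all tested genes, 10.4% were higher and 13.8% lower. Without replicate 6, 12 genes of the list were higher and 2 were lower (Ccl6 and Cd52), beside 16.2% and 25.1% of all tested genes. Without WT replicate 1, 2 or 3 the list held 3, 4 and 4 called genes. Ch25h, which makes 25-hydroxycholesterol, was at 8.15, 11.4 and 8.83 FPKM in WT and at 35.9, 26.1 and 38.7 FPKM in PGRN KO (1.72 ± 0.18, limma adjusted p 0.00196). Gpnmb, a membrane glycoprotein of lipid-laden macrophages, rose from 689 ± 12.1 to 1689 ± 110 FPKM (1.29 ± 0.10, adjusted p 0.00119), with replicate 6 at 1815 FPKM and the others at 1641 and 1610 FPKM. Csf1, the macrophage growth factor, rose from 12.9 ± 0.392 to 32.6 ± 2.13 FPKM (1.27 ± 0.09), and it is one of the genes that the study named from these samples. The other genes that rose were Ctsd, Timp2, Fabp5, Ctsa, Ctsb, Gusb and Ank, of which Ctsd, Ctsa, Ctsb and Gusb encode lysosomal hydrolases. The most abundant genes of the list, Fth1 (ferritin heavy chain) and Lyz2 (lysozyme), had log2 fold changes of 0.12 and 0.20 and did not pass (adjusted p 0.67 and 0.40).

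The homeostatic genes of microglia were mostly below the level for testing. Of 16 listed, 5 were tested, 0 were higher (0 also at an unadjusted p under 0.05 and by voom) and 2 were lower. Among all tested genes, 10.4% were higher and 13.8% lower. Tmem119 was at 16.3, 14.5 and 22.3 FPKM in WT and at 7.63, 10.4 and 12.1 FPKM in PGRN KO (-0.76 ± 0.20, limma adjusted p 0.0356), and Csf1r, the receptor for Csf1, fell from 32.5 ± 1.29 to 24.6 ± 0.905 FPKM (-0.38 ± 0.08, adjusted p 0.0178). The calls of Tmem119 and Csf1r were lost on the TPM scale, with library size taken as the sum of fragments and when any 1 WT library was left out, among others. P2ry12 was at most 0.0907 FPKM, and Sall1 was at 0 in all libraries.

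**Figure D4:**
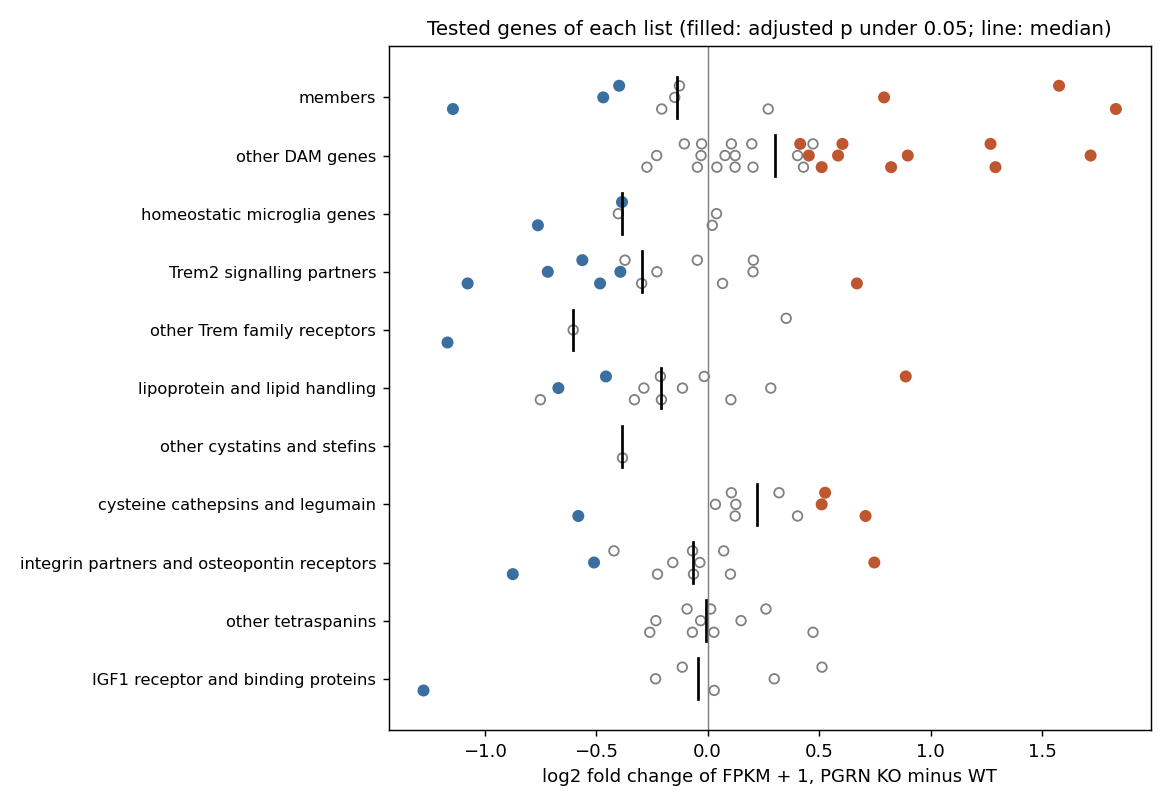
Log2 fold change of FPKM + 1 (PGRN KO minus WT, horizontal axis) for the tested genes of each list, with the 10 genes described above in the top row, labelled members. Filled points had a limma adjusted p under 0.05, open points did not, and the vertical line is the median of the list. Other disease-associated microglia (DAM) genes had 10 filled points, all above 0, whereas Trem2 signalling partners had 1 above and 5 below 0.

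For each member past the threshold, the tested genes with the most similar profile over the 6 libraries were listed, by Pearson's r on log2(FPKM + 1). They were Rsph9 and Adam15 for Apoe (r = 0.9992 and 0.9979), Gpx4 and Pgm2 for Trem2 (0.9995 and 0.9990) and Galns and Ms4a8a for Cst7 (0.9975 each). Maff and Srsf2 were nearest to Lpl (0.9984 and 0.9978), Casz1 and Pik3ap1 to Itgax (0.9996 and 0.9990) and Tes and Vcp to Igf1 (0.9959 and 0.9957). Each pair was picked from all tested genes, over 6 points that fall into 2 groups.

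Markers of cell types were examined because the members are also expressed outside macrophages. All 8 macrophage markers were tested, with summed levels of 11620 to 12560 FPKM in WT libraries and 10440 to 14380 FPKM in PGRN KO. Among them, Mertk was higher (0.81 ± 0.13, limma adjusted p 0.0064) and Csf1r was lower. Without PGRN KO replicate 6, Mertk was higher, and Cd14, Csf1r, Fcgr1 and Itgam were lower. Of the markers of large peritoneal macrophages, Gata6 was at 3.78 to 4.26 FPKM in WT libraries and 3.84 to 5.07 FPKM in PGRN KO, and Timd4 was at most 0.204 FPKM. Icam2, the 1 called of 4 tested markers of that type, rose from 3.10 ± 0.163 to 5.10 ± 0.526 FPKM (0.57 ± 0.10, limma adjusted p 0.00914), and Cd93 also passed without PGRN KO replicate 6 (0.67, adjusted p 0.0107). Markers of small peritoneal macrophages and monocytes summed to 338 to 356 FPKM in WT libraries and 175 to 278 FPKM in PGRN KO, and 2 of 5 tested, Ly6c2 and H2-Aa, fell. Microglia markers other than Tmem119 were at or near 0.

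Beside Itgax, the 8 dendritic cell markers summed to 30.5 to 37.7 FPKM in WT libraries and 17.6 to 21.0 FPKM in PGRN KO. Ccr7 and Clec10a, the 2 tested, both fell, and Cd209a was at 0. Most of that sum was Ccr7, at 28.9 ± 3.42 FPKM in WT libraries and 16.6 ± 1.93 FPKM in PGRN KO. The untested markers did not share a direction. For Xcr1 and Flt3, every PGRN KO library lay below every WT library. Mean Xcr1 dropped from 1.16 to 0.388 FPKM, and mean Flt3 dropped from 0.320 to 0.120 FPKM. Zbtb46, Batf3 and Clec9a had a higher mean in PGRN KO, with overlapping groups. The WT libraries spanned 0.532 to 0.583 FPKM for Zbtb46, and the PGRN KO libraries spanned 0.571 to 0.764 FPKM. Next to Cst7, the 7 markers of T and NK cells summed to 1.05 to 1.46 FPKM in WT libraries and 2.18 to 2.63 FPKM in PGRN KO with 0 tested. The NK cell markers among them, Ncr1 and Klrb1c, were at 0.0671 and 0.0317 FPKM on average in WT and at 0.0604 and 0.00651 FPKM in PGRN KO. The 6 mast cell markers summed to 2.29 to 3.19 and 9.72 to 14.0 FPKM, with Tpsb2 and Cma1, the 2 tested, higher. Of the untested ones, Kit had a lower mean in PGRN KO (0.345 in WT and 0.210 FPKM in PGRN KO), with overlapping groups. Cpa3, Mcpt4 and Fcer1a had a higher mean in PGRN KO. Cma1, at a mean of 0.789 FPKM in WT, was tested only through its PGRN KO mean of 4.215 FPKM. B cell markers summed to 4.8 to 6.08 FPKM in WT libraries and 19.0 to 24.1 FPKM in PGRN KO, and the 3 tested, Ighm, Cd79a and Cd79b, were higher. Cd79a and Cd79b had WT means of 0.96 and 0.633 FPKM and reached the level for testing only through PGRN KO. The Cd79b call was lost with quantile normalization (limma adjusted p 0.0556). Neutrophil markers summed to 48.8 to 53.2 FPKM in WT and 21.4 to 26.4 FPKM in PGRN KO. Nearly all of that sum was S100a8, which fell from 50.0 ± 2.46 to 23.3 ± 2.20 FPKM. The other neutrophil markers were at most 0.443 FPKM, and Ly6g, Cxcr2 and Elane were at 0. Fibroblast markers, 0 of them tested, summed to 0.864 to 0.877 FPKM in WT and to 1.86 to 3.43 FPKM in PGRN KO, without overlap, and those of eosinophils and mesothelial cells to at most 0.249 and 0.384 FPKM. The part of these cells in the differences of the members was not tested.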

How the data were processed

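RNA of 3 WT and 3 PGRN KO libraries was sequenced from polyadenylated transcripts. The authors removed low-quality reads, aligned the rest to the mouse genome and deposited FPKM per gene and library. The notes of the submitters name HISAT2 2.0.5, featureCounts 1.5.0-p3, DESeq2 1.20.0 and the build mm10 (GRCm38), whereas the methods of the study name other versions and another counter. Neither the annotation release nor the use of strand is given in the sources used here. Among 54532 identifiers, 99.9% were in GENCODE M21, and all 10 members had the same coordinates there. FPKM multiplied by gene length gave whole multiples of 1 step per library (100% within 0.01 of a step), from which fragments were recovered. The library size used by the authors was 0.925 to 1.09 times their sum.

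Values were analysed as log2(FPKM + 1), which understates the change of low genes. All genes reaching a mean of 1 FPKM entered a single fit in limma (version 3.58.1, R 4.3.3) with a mean-variance trend and no covariates. Besides Grn, the called genes Ctsw, Cd79a, Cd79b, Cma1, Clec10a and Mylip had a mean under 1 FPKM in 1 group. They were tested through the group where they were higher, so the filter favours the direction of their calls. Tests were two-sided, and Benjamini-Hochberg adjusted p under 0.05 counted as significant. Because the values are FPKM, no count model was the main test. The correction for gene length was a loess fit (span 0.5) of the deviation of each library on log length. The limma step was tested on simulated data. The members and lists were chosen with earlier results of these data known. The text names every member, Grn, the called genes of each list with the 3 largest changes, the 2 most abundant genes of each list, and the 2 genes most alike to each called member, leaving out predicted models. The result of 1 gene under this rule is not reported here. Other genes it names, cell type markers included, were chosen after their values were seen. Fragment numbers carry counting error only, because without molecular identifiers copies of a molecule cannot be told apart. The alternatives were pseudocounts of 0.1 and 0.01, no filter, a minimum mean of 5 FPKM, the TPM scale, quantile normalization, the sum of fragments as library size, the length correction, no variance trend, sample quality weights, voom on recovered fragments and leaving out each library.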

Additional observations from a re-analysis of the deposited data

How the results depend on the processing

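The number of members past the threshold was 6 and ranged from 3 to 9 when 1 library was left out, and it was 3 with no filter, where 22912 genes were tested. Those higher in PGRN KO numbered 2 to 4 in every alternative, whereas those lower, 3 with the deposited values, numbered 1 with no filter, 6 with sample quality weights, 6 with the length correction without PGRN KO replicate 6 (an alternative chosen after seeing the data) and 1 to 6 when 1 library was left out. The 29 listed genes past the threshold became 48 with quality weights, 49 with the length correction without PGRN KO replicate 6 and 12 to 47 when 1 library was left out. Quality weights gave PGRN KO replicate 6 a weight of 0.0899. Over 18 alternatives and 10 members, 149 comparisons kept their side of the threshold, 12 gained a call, 19 lost one and 0 changed direction. Over all tested genes, 2151 were called with the deposited values, 4225 with quality weights, 3668 without PGRN KO replicate 6 and 713, 855 and 883 without WT replicates 1, 2 and 3, 1390 without PGRN KO replicate 4 and 1366 with no filter. Of called genes, 42.8% were higher with the deposited scaling, 60.6% on the TPM scale and 62.9% with the sum of fragments as library size, and on both of these 3 members were higher and 2 lower. The cause of these shifts was not tested. Depth limits Cst7 most, with 56 fragments in its lowest library. No paired analysis was possible because no replicate number occurs in both genotypes.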
